A study of Mus musculus with 13 samples.

Results

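The genes in question, 10 in all, belong to the mature enterocyte, the absorptive cell of the small intestine. They were followed across Eed knockout (KO), Ezh2 KO and wild-type (WT) intestine. They are Alpi, Dpp4, Enpep, Sis and Lct, which encode digestive enzymes of the brush border, Krt20, a keratin of surface epithelium, and the lipid genes Dgat1, Fabp1, Apoa1 and Apoa4. The 10 genes were chosen by symbol from the deposited read count tables of 2 sequencing runs and joined by Ensembl identifier, out of 21420 genes listed in both tables. All 10 had enough reads to pass the low-count filter in every fit.

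Enterocytes form from dividing progenitors in the crypt and mature as they move onto the villus, where the apical membrane folds into a brush border that carries hydrolases for sugars and peptides. Inside the cell, absorbed fatty acids are bound by fatty acid binding proteins, rebuilt into triglycerides and packed with apolipoproteins into chylomicrons. Eed and Ezh2 encode subunits of Polycomb repressive complex 2, which places trimethylation on lysine 27 of histone H3. Eed is needed for the activity of the complex, and Ezh2 is one of its alternative methyltransferases.

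The Eed KO crypts (Eed-/-, 3 libraries), Ezh2 KO crypts (Ezh2-/-, 3 libraries) and WT crypts (3 libraries) came from mice of mixed C57BL/6-FVB background that were 6 weeks old when a course of 6 weeks of beta-naphthoflavone began. These mice were 12 weeks old at sampling. The Eed KO organoids (AhCre;Eed f/f, background C57BL/6-FVB, 2 libraries) and WT organoids (AhCre, background FVB, 2 libraries) were cultures grown from crypts and given the same compound for 10 days. AhCre is a recombinase driven by a promoter that beta-naphthoflavone switches on, and all groups, WT included, received the compound. Villi were scraped off before crypts were released with EDTA, so that crypt levels of villus genes are those of the cells left behind. Nothing in the labels says that the libraries of 1 group are separate mice or cultures, and p-values here cover no more than the spread among libraries, which may be technical.

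Run 385 held Eed KO crypts 385_1 and 385_2, WT crypts 385_1 and 385_2 and the 4 organoid libraries, and run 440 held Eed KO crypt 440_1, the 3 Ezh2 KO crypts and WT crypt 440_1. The library names of run 440 give AhCre with Eed f/f, AhCre with Ezh2 f/f, and AhCre alone for WT. Those of the crypts in run 385 name no recombinase. Depth ran from 11421666 to 18300644 counts. Eed transcript averaged 19.1 ± 5.16 CPM (counts scaled to library size, SD) in Eed KO crypts against 54.5 ± 5.26 CPM in WT crypts, and 24.9 ± 7.98 against 67.9 ± 7.83 CPM in Eed KO and WT organoids. Ezh2 transcript averaged 19.2 ± 2.30 CPM in Ezh2 KO crypts against 86.1 ± 12.2 CPM in WT crypts. Transcripts of 14 immune genes summed to 129 to 259 CPM in Eed KO crypts, 71.3 to 98.4 CPM in Ezh2 KO crypts and 125 to 130.1 CPM in WT crypts. Eed KO crypt 440_1 stood apart from the other Eed KO crypts, with a summed level over the 10 enterocyte genes of 2481 CPM against 240.0 and 425 CPM in Eed KO 385_1 and 385_2. The labels give no sex, but in run 385 the Y-linked Ddx3y had at most 1 count in Eed KO crypts, against 400 and 627 counts in WT crypts, while no crypt of run 440 had any. In organoids Ddx3y had 597 and 632 counts in Eed KO libraries against 1 and 0 counts in WT libraries. Genotype in run 385 and in the organoids therefore cannot be told apart from the sex that this gene marks. The tables of the runs were also not counted alike, since the mitochondrial gene mt-Co2 had 77176 to 155973 counts in libraries of run 385 and 7 to 25 counts in those of run 440. In bulk libraries, fewer enterocytes and less RNA per enterocyte cannot be told apart.

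The promoters of 6 of these genes are shown as examples of windows with a motif match, from genes that passed the test in at least 1 comparison below. They were taken from RefSeq on GRCm38.p6, from 250 bases before to 50 after the start, which gave a sequence for 9 of the 10 genes. Alpi lies at chr1:87101557-87101856, minus strand. The Lct window is chr1:128328269-128328568, minus strand, and that of Dpp4 is chr2:62412182-62412481, minus strand. Enpep has chr3:129332700-129332999, minus strand. For Krt20 the window is chr11:99438104-99438403, minus strand, and for Fabp1 it is chr6:71199629-71199928, plus strand. Each is written 5′ to 3′ along the gene, and capitals mark a match on either strand to 1 of 5 motifs. The TATA box was searched as TATAAA. The motif of GATA factors was searched as AGATAA. The motif of the nuclear receptor HNF4 was searched as CAAAGTC. That of CDX homeobox factors was TTTATG. For the homeobox factor HNF1, the letters were GTTAAT.
Alpi promoter: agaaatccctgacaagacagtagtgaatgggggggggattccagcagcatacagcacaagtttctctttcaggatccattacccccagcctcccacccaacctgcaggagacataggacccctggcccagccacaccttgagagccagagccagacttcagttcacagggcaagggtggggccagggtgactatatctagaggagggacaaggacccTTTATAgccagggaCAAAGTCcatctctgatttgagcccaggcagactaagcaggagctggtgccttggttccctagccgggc
Lct promoter: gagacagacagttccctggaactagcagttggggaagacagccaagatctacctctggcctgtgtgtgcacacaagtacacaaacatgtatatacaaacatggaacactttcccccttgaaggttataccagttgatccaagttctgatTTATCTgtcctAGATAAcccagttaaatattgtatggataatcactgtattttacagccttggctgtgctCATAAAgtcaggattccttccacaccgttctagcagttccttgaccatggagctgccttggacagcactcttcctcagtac
Dpp4 promoter: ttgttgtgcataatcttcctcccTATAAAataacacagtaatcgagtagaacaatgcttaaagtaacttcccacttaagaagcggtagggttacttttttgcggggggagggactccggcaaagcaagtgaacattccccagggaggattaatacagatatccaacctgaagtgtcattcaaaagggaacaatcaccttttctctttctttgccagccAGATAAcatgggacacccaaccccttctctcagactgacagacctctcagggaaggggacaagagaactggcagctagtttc
Enpep promoter: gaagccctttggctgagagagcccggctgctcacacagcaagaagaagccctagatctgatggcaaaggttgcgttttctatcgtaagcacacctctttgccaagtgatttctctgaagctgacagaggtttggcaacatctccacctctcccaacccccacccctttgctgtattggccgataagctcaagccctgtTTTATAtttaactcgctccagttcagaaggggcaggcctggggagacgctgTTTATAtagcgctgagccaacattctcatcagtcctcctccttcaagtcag
Krt20 promoter: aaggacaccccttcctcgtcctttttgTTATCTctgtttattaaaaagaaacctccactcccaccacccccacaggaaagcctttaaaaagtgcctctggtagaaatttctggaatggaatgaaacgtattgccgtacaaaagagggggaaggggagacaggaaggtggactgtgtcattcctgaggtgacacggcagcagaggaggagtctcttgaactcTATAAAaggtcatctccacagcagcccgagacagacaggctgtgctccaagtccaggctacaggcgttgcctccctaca
Fabp1 promoter: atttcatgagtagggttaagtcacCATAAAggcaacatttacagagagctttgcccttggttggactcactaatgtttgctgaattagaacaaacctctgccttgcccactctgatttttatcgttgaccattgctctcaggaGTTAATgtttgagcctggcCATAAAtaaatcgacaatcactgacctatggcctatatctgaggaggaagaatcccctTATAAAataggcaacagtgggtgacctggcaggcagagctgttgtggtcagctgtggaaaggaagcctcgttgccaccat
Of the 9 promoters, 6 held TATAAA on either strand (Alpi, Dpp4, Sis, Enpep, Fabp1 and Krt20), against 13.6% of the 32851 promoters in the table. Read along the gene, it began at -30 in Fabp1, -29 in Krt20, -134 in Sis and -227 in Dpp4. In Alpi and Enpep it was on the other strand only. AGATAA was in 3 of 9 (Lct, Dpp4 and Krt20) against 11.2% of all, and TTTATG in 3 of 9 (Lct, Sis and Fabp1) against 11.9%. GTTAAT was in 2 of 9 (Sis and Fabp1) against 7.1%, and CAAAGTC was in Alpi alone against 4.44%. The windows of Apoa1 and Apoa4 held no match. In Sis, matches to TATAAA on both strands overlap. These are matches of letters and not measured binding sites.

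The first comparison asked what loss of Eed changes in crypts. All 10 enterocyte genes had a lower fitted level in Eed KO than in WT crypts. The fall passed the test for 3 of them, the aminopeptidase gene Enpep, the keratin gene Krt20 and the triglyceride synthesis gene Dgat1. At the same threshold, 10.6% of all 14406 genes tested were lower and 13.4% were higher, and no enterocyte gene of the 10 was higher. Their median log2 fold change was -1.52, beside -0.04 over all genes tested. Group mean CPM was instead higher in Eed KO than in WT crypts for Alpi, Fabp1, Apoa1 and Apoa4. The means were 58.0 against 51.9 CPM for Alpi and 46.7 against 45.3 CPM for Fabp1. For Apoa1 they were 235 against 169 CPM, and for Apoa4 306 against 242 CPM. The values of Eed KO crypts lay far apart, with Eed KO 440_1 the highest of the 3 for 8 of the genes, all but Dpp4 and Sis. Without that library, 8 of the 10 genes were lower by the test, and the share of all genes lower in that refit is not given here. Markers of other crypt cells were lower in the same comparison: 13 of 15 proliferation genes, 7 of 10 stem cell genes, 8 of 10 enteroendocrine genes and 5 of 10 Paneth cell genes, with 1 enteroendocrine gene higher and none in the other 3 lists. Paneth cell genes summed to 21555 to 30185 CPM in Eed KO crypts against 84708 to 124061 CPM in WT crypts, and proliferation genes to 1103 to 1268 CPM against 2689 to 2960 CPM. Of the goblet cell genes, 2 of 10 were higher and 2 lower, and none of 9 tuft cell genes passed. The part of cell make-up in the enterocyte results was not tested.

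Among the brush border enzymes, Enpep (ENSMUSG00000028024, chromosome 3, 129269175 to 129332720) encodes aminopeptidase A, which trims acidic residues from peptides. It had 3.44, 5.67 and 107.8 CPM in Eed KO crypts 385_1, 385_2 and 440_1, against 217, 115 and 248 CPM in WT crypts 385_1, 385_2 and 440_1. All Eed KO values lay under all WT values, and the log2 fold change was -3.88 ± 0.90 (SE, adjusted p = 0.0147). With libraries of the same run and number as a block, the same gene gave -3.86 with adjusted p = 0.0799, and over 16 alternatives its adjusted p ran from 4.67e-05 to 0.299. Alpi (ENSMUSG00000079440, chromosome 1, 87098002 to 87101606) encodes intestinal alkaline phosphatase, which removes phosphate from nucleotides and bacterial lipopolysaccharide. It had 3.75, 7.36 and 163 CPM in Eed KO crypts, against 46.2, 25.8 and 83.9 CPM in WT crypts. The groups overlapped, since Eed KO 440_1 was above every WT crypt, and the log2 fold change of -1.48 ± 0.78 did not pass (adjusted p = 0.213). Reads of Alpi can be split with its close paralogs Akp3 and Alppl2, so that its level is less certain.

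Lct (ENSMUSG00000026354, chromosome 1, 128284756 to 128328318) encodes lactase, which splits milk sugar. It had 1.33, 0.338 and 83.5 CPM in Eed KO crypts, which are 17, 4 and 1422 counts, against 47.6, 18.2 and 49.2 CPM in WT crypts. Both Eed KO crypts of run 385 were far under the WT range and Eed KO 440_1 was above it, so that the log2 fold change of -2.97 ± 1.33 did not pass (adjusted p = 0.146). Sis (ENSMUSG00000027790, chromosome 3, 72888557 to 72967863) encodes sucrase-isomaltase, which splits sucrose and starch products. It had 15.2, 134 and 112 CPM in Eed KO crypts, against 386, 194 and 186 CPM in WT crypts. All Eed KO values lay under the lowest WT value, yet the log2 fold change of -1.55 ± 0.72 did not pass (adjusted p = 0.161). Dpp4 (ENSMUSG00000035000, chromosome 2, 62330073 to 62412231) encodes dipeptidyl peptidase 4, which clips peptides after proline and inactivates incretin hormones. It had 101, 145 and 75.1 CPM in Eed KO crypts, against 147, 141 and 135 CPM in WT crypts. Its log2 fold change of -0.43 ± 0.25 was the smallest of the 10 and did not pass (adjusted p = 0.263). Enpep, Dgat1 and Sis were the 3 genes of the 10 without overlap between groups, where 13.3% of all genes tested were lower without overlap.

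Krt20 (ENSMUSG00000035775, chromosome 11, 99428403 to 99438150) encodes an intermediate filament protein of differentiated surface cells. It had 23.5, 14.9 and 161 CPM in Eed KO crypts, against 117, 79.4 and 229 CPM in WT crypts. Within each run the Eed KO values were under the WT values, while across runs the groups overlapped, and the log2 fold change was -1.73 ± 0.43 (adjusted p = 0.0189). With the replicate block it was -1.76 with adjusted p = 0.0682, within a range of 0.000154 to 0.589 over 16 alternatives.

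Of the lipid genes, Dgat1 (ENSMUSG00000022555, chromosome 15, 76502015 to 76511951) encodes the acyltransferase that adds the last fatty acid in triglyceride synthesis. It had 26.7, 45.1 and 152 CPM in Eed KO crypts, against 159, 170.4 and 298 CPM in WT crypts. The groups did not overlap, and Dgat1 fell by 1.78 ± 0.33 on the log2 scale (adjusted p = 0.00496), which was also past the threshold with the replicate block (adjusted p = 0.0342) and in 15 of 16 alternatives (adjusted p from 9.49e-07 to 0.188). Fabp1 (ENSMUSG00000054422, chromosome 6, 71199827 to 71205023), the liver-type fatty acid binding protein, had 6.09, 16.8 and 117 CPM in Eed KO crypts, against 69.9, 21.3 and 44.9 CPM in WT crypts. Apoa1 (ENSMUSG00000032083, chromosome 9, 46228580 to 46230466), the main protein of high-density lipoprotein, had 21.4, 28.8 and 656 CPM in Eed KO crypts, against 120.1, 46.9 and 340.1 CPM in WT crypts. In both genes Eed KO 440_1 was above every WT crypt and the other Eed KO crypts below every one. Apoa4 (ENSMUSG00000032080, chromosome 9, 46240696 to 46243459), a chylomicron protein released after fat intake, lies close to Apoa1 on chromosome 9, with 37.1, 27.4 and 853 CPM in Eed KO crypts, against 85.3, 114 and 526 CPM in WT crypts. The 3 genes gave log2 fold changes of -0.91, -0.87 and -0.87 for Fabp1, Apoa1 and Apoa4, and none passed (adjusted p = 0.456, 0.350 and 0.260).

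**Figure D1:**
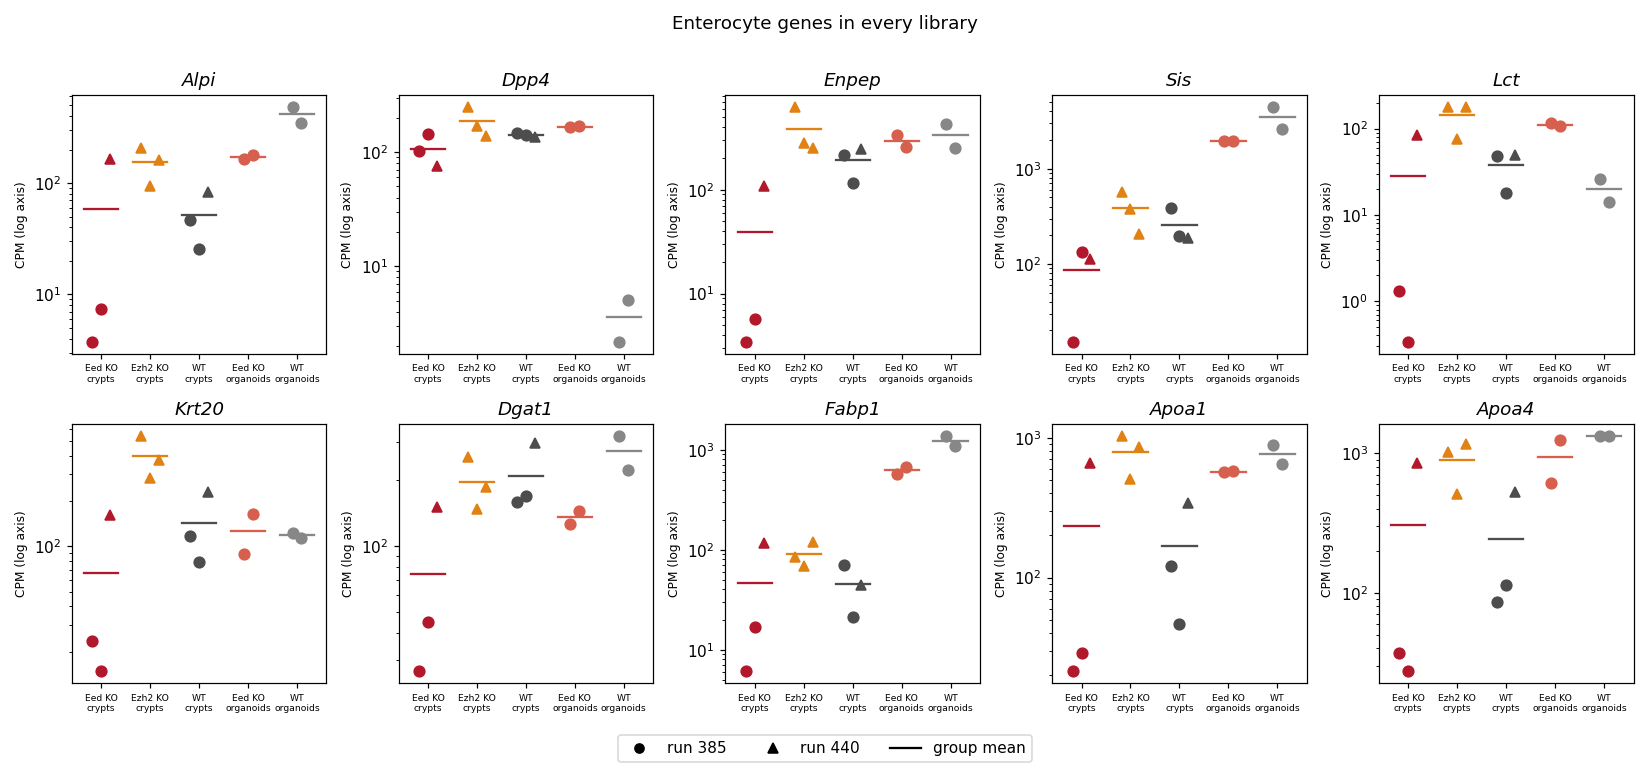
CPM on a log axis for each of the 10 genes, 1 point per library and a bar at the group mean, with circles for run 385 and triangles for run 440. Eed KO crypts of run 385 lie low for most genes and Eed KO 440_1 high, and Dpp4 is near the bottom of its axis in WT organoids alone, at 2.18 and 5.06 CPM.

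Since Eed KO 440_1 stood apart, the effect of Eed loss in crypts was also fitted with its own term in each run, a choice made after seeing the data. Within run 385, 8 of the 10 genes were lower in Eed KO crypts, all but Dpp4 and Sis, where 11.1% of all genes tested were lower. Their median log2 fold change there was -2.09, beside 0.05 over all genes. Within run 440, 1 Eed KO crypt was set against 1 WT crypt, so that each SE and p there takes its spread from the other groups and assumes that these single libraries vary alike. In that run none of the 10 passed, where 8.73% of all genes were lower and 7.89% higher, and 5 of the 10 had a positive fold change.

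Alpi had a log2 fold change of -2.69 ± 0.45 within run 385 and 0.96 ± 0.56 within run 440, and the difference of 3.65 ± 0.73 passed the test (adjusted p = 0.0447). Lct gave -5.26 ± 0.75 within run 385 and 0.77 ± 0.74 within run 440, a difference of 6.02 ± 1.11 (adjusted p = 0.0399). These 2 genes were the ones whose effect was higher in run 440 by the test, where 0.798% of all genes were. Enpep gave -5.19 ± 0.57 and -1.20 ± 0.66, negative in both runs, with a difference of 3.99 ± 0.86 that did not pass (adjusted p = 0.0580). Dgat1 gave -2.19 ± 0.31 and -0.97 ± 0.41, and Krt20 gave -2.34 ± 0.35 and -0.51 ± 0.46. For Fabp1, Apoa1 and Apoa4 the fold change was negative within run 385 (-1.99, -1.73 and -1.62) and positive within run 440 (1.39, 0.95 and 0.70), and the differences did not pass (adjusted p = 0.119, 0.0964 and 0.0864).

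**Figure D2:**
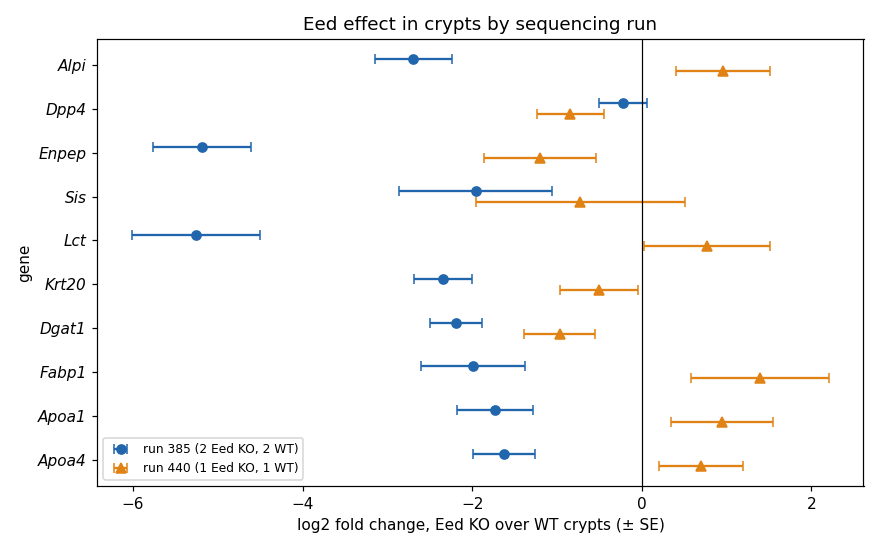
Log2 fold change of Eed KO over WT crypts (bars, SE) for each gene within run 385 (circles) and run 440 (triangles). All 10 genes lie under 0 in run 385, while Alpi, Lct, Fabp1, Apoa1 and Apoa4 lie above 0 in run 440.

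Several measures moved with this split. Mitochondrially encoded transcripts of 9 genes summed to 31093 CPM in Eed KO 440_1 against 93273 CPM in WT 440_1, and to 152580 and 167461 CPM in Eed KO against 128981 and 149069 CPM in WT crypts of run 385. Among the 9, mt-Co2, mt-Co3 and mt-Atp6 had 7 to 56 counts in libraries of run 440 and 77176 to 315126 in those of run 385. These sums can therefore be compared within a run only. A list of 8 genes of the distal small intestine summed to 31.2 and 33.5 CPM in Eed KO crypts of run 385 and 296 CPM in Eed KO 440_1, against 148 to 243 CPM in WT crypts. All 8 of them were detected in each of those libraries. Tuft cell genes summed to 284 CPM in Eed KO 440_1 against 37.0 CPM in WT 440_1, and to 244 and 202 CPM in Eed KO against 263 and 188 CPM in WT crypts of run 385, and for 4 of 9 of them the effect was higher in run 440 by the test. Genes of mesenchyme, muscle and endothelium summed to 148 CPM in Eed KO 440_1 against 768 CPM in WT 440_1, and to 194 and 339 CPM in Eed KO against 64.6 and 188 CPM in WT crypts of run 385. None of 13 of them passed the test of the difference between runs, whose median was -3.46. Stem cell genes did not split the Eed KO crypts, with sums of 2319, 2085 and 1967 CPM in Eed KO 385_1, 385_2 and 440_1, against 5856 to 6613 CPM in WT crypts. The parts of sex, RNA quality, cell make-up, the position of the tissue along the intestine and the counting of each run in the split were not tested.

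Other genes of digestion and absorption were read in the same fit. Of 11 further brush border hydrolases, 2 fell and 1 rose, with a median log2 fold change of -1.01. Maltase-glucoamylase (Mgam), which works beside sucrase-isomaltase, averaged 698 ± 109.9 CPM in Eed KO crypts and 1442 ± 368 CPM in WT crypts (log2 fold change -1.02 ± 0.32, adjusted p = 0.0495). The neprilysin gene Mme rose by 1.35 ± 0.36 (adjusted p = 0.0257). Within run 385, 6 of the 11 were lower and 1 higher, and within run 440 none passed. Of 15 genes of brush border structure, such as those for villin and its partners, 2 rose, Eps8 (0.84 ± 0.17) and Espn (0.85 ± 0.27), and none fell, with a median of -0.06. Within run 385, 4 of these 15 were lower and 1 higher.

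Of 22 further genes of fat uptake and chylomicron assembly, 2 rose and 2 fell, with a median of -0.04, the same as over all genes. The lipoprotein receptor gene Scarb1 averaged 47.5 ± 17.99 CPM in Eed KO crypts and 8.10 ± 2.78 CPM in WT crypts (log2 fold change 2.55 ± 0.21, adjusted p = 0.000191), and the cholesterol transporter gene Npc1l1 had -2.82 ± 0.82 (adjusted p = 0.0367). Scarb1 had 2.52 ± 0.27 in run 385 and 2.59 ± 0.36 in run 440, while Npc1l1 was -4.04 ± 0.48 in run 385 and -0.28 ± 0.57 in run 440. Of 16 nutrient transporters, 4 fell and 2 rose, with a median of -0.82. The sodium-proton exchanger gene Slc9a3 rose (3.06 ± 0.50), and the glutamate transporter gene Slc1a1 fell (-1.88 ± 0.24).

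Among 23 regulators of enterocyte maturation, 9 fell and none rose by edgeR's test, with a median of -0.57. Hnf4a, a nuclear receptor that drives many enterocyte genes, averaged 449 ± 206 CPM in Eed KO crypts and 1079 ± 106 CPM in WT crypts (-1.35 ± 0.23, adjusted p = 0.00350). Its partner Hnf4g averaged 33.5 ± 8.78 CPM against 151 ± 42.2 CPM (-2.13 ± 0.27, adjusted p = 0.00101). Hnf4g was under every WT value in each Eed KO crypt, 440_1 included, with 27.4, 43.6 and 29.6 CPM in 385_1, 385_2 and 440_1, against 189, 158 and 105 CPM in WT crypts. The homeobox factor Cdx1 gave -1.89 ± 0.19 (adjusted p = 0.000368), with -2.11 ± 0.20 in run 385 and -1.44 ± 0.27 in run 440. Within run 385, 14 of the 23 regulators were lower, and within run 440, 2 were. Of 11 villus tip genes, 1 rose and 2 fell, among them Slc28a2 (1.83 ± 0.31) and Egfr (-0.72 ± 0.17).

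The next comparison set Ezh2 KO against WT crypts. None of the 10 enterocyte genes differed between Ezh2 KO and WT crypts by edgeR's test, where 0.0208% of all genes did, and DESeq2 also called none of the 10. At an unadjusted p under 0.05, 1 of the 10, Dgat1, and 1179 of 14406 genes passed. All 3 Ezh2 KO libraries were nonetheless above all 3 WT libraries for Alpi, Enpep, Krt20, Apoa1 and Lct, where 10.6% of all genes tested were higher without overlap. None of the 10 was lower without overlap, where 9.43% of all genes were. Since every Ezh2 KO crypt was in run 440, the comparison within that run rests on 1 WT crypt.

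Apoa1 had 1027, 506 and 856 CPM in Ezh2 KO crypts 440_1, 440_2 and 440_3, against 120.1, 46.9 and 340.1 CPM in WT crypts 385_1, 385_2 and 440_1. Apoa4 had 1024, 513 and 1163 CPM in Ezh2 KO crypts, against 85.3, 114 and 526 CPM in WT crypts. For both apolipoproteins WT 440_1 was the highest WT crypt, and for Apoa4 it overlapped the Ezh2 KO range. Lct had 178, 75.7 and 179 CPM in Ezh2 KO crypts, against 47.6, 18.2 and 49.2 CPM in WT crypts. Alpi had 204, 94.7 and 162 CPM in Ezh2 KO crypts, against 46.2, 25.8 and 83.9 CPM in WT crypts. Krt20 had 537, 284 and 374 CPM in Ezh2 KO crypts, against 117, 79.4 and 229 CPM in WT crypts. In these 3 genes the lowest Ezh2 KO library was above the highest WT library. Enpep had 629, 283 and 249.4 CPM in Ezh2 KO crypts, against 217, 115 and 248 CPM in WT crypts, so that its lowest Ezh2 KO value was level with WT 440_1.

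Sis had 569, 379.6 and 208 CPM in Ezh2 KO crypts, against 386, 194 and 186 CPM in WT crypts. Fabp1 had 84.9, 68.9 and 119 CPM in Ezh2 KO crypts, against 69.9, 21.3 and 44.9 CPM in WT crypts. Dpp4 had 249.8, 169.8 and 137 CPM in Ezh2 KO crypts, against 147, 141 and 135 CPM in WT crypts. Dgat1 had 257, 148 and 187 CPM in Ezh2 KO crypts, against 159, 170.4 and 298 CPM in WT crypts. These 4 genes overlapped between the groups. The direction of a fitted fold change depended on which libraries set the run term: with the Eed KO crypts in the fit, Alpi gave -0.81 ± 0.95 and Lct -1.27 ± 1.57, and without them 0.91 ± 0.46 and 1.59 ± 0.66, neither past the threshold. Without the Eed KO libraries, Dgat1 alone of the 10 was negative (-0.56 ± 0.27). Without WT 440_1, 3 of the 10, Alpi, Enpep and Lct, were called lower, although all their Ezh2 KO values lay above all WT values. That refit has no WT crypt in run 440, so its run term rests on Eed KO 440_1 against the other Eed KO crypts. The share of all genes called in it is not given here.

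The knockouts were also compared with each other in crypts. All 10 genes had a lower fitted level in Eed KO than in Ezh2 KO crypts, and the fall passed the test for Dpp4 (log2 fold change -1.08 ± 0.32, adjusted p = 0.0478) and Krt20 (-1.79 ± 0.49, adjusted p = 0.0337). Of all genes tested, 8.05% were lower and 12% higher. Dpp4 had 101, 145 and 75.1 CPM in Eed KO crypts, against 249.8, 169.8 and 137 CPM in Ezh2 KO crypts. Krt20 had 23.5, 14.9 and 161 CPM in Eed KO crypts, against 537, 284 and 374 CPM in Ezh2 KO crypts. For Krt20 the groups did not overlap, and for Dpp4 they did. Enpep and Sis were the other 2 genes lower without overlap, where 19.5% of all genes were. Each call held in 6 of 14 alternatives, with adjusted p from 0.00604 to 0.234 for Dpp4 and from 0.00264 to 0.103 for Krt20. Of marker genes in the same comparison, 12 of 15 for proliferation and 7 of 10 for stem cells were lower and none higher, and 6 of 14 immune genes were higher and none lower. Their part was not tested. Without Eed KO 440_1, 7 of the 10 genes were lower, and the share of all genes lower in that refit is not given here. Within run 440, which holds 1 Eed KO crypt and all Ezh2 KO crypts, the log2 fold change was -1.22 for Dpp4 and -1.22 for Krt20. It was positive there for Alpi (0.17), Fabp1 (0.46) and Apoa4 (0.01), and negative for the rest of the 10.

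Loss of Eed was then examined in organoids, where the genes went both ways. Alpi, Dgat1 and Fabp1 fell in Eed KO organoids, by 0.98 to 1.29 on the log2 scale, and Dpp4 and Lct rose. At the same threshold 4.63% of all 12958 genes tested were lower and 13.5% higher. The median log2 fold change of the 10 was -0.46, beside -0.005 over all genes. The Eed KO organoids carry the strain label C57BL/6-FVB and the WT organoids FVB, so that genotype and strain background cannot be told apart in this comparison.

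Dpp4 gave the largest difference of the 10. It had 165 and 168 CPM in Eed KO organoids 385_1 and 385_2, against 2.18 and 5.06 CPM in WT organoids, which are 29 and 59 counts. Eed KO organoids thus had a level like that of the crypt groups, and the WT organoids were the only libraries of the 13 under 75 CPM. The log2 fold change was 5.54 ± 0.33 (adjusted p = 0.000367), and it passed in 9 of 9 alternatives with adjusted p from 1.11e-83 to 0.00312. Lct had 115 and 108 CPM in Eed KO organoids, against 25.8 and 14.1 CPM in WT organoids. Neither value of Eed KO organoids came near those of WT organoids, and the log2 fold change was 2.48 ± 0.27 (adjusted p = 0.00244).

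Alpi had 163 and 177 CPM in Eed KO organoids, against 485 and 346 CPM in WT organoids, a fall of 1.29 ± 0.18 (log2 fold change -1.29, adjusted p = 0.00329). Fabp1 had 570.4 and 675 CPM in Eed KO organoids, against 1367 and 1094 CPM in WT organoids (-0.98 ± 0.17, adjusted p = 0.00771). Dgat1 had 127 and 144 CPM in Eed KO organoids, against 319 and 224 CPM in WT organoids (0.498 times the WT level, with an SE of 0.18 on the log2 scale and adjusted p = 0.0103). In each of these 3 genes both Eed KO organoids were under both WT organoids. Dgat1 was thus lower in Eed KO crypts and in Eed KO organoids by the test, and it did not pass without Eed KO organoid 385_1 (adjusted p = 0.0523, within a range of 7.3e-06 to 0.103 over 9 alternatives).

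Sis had 1943 and 1959 CPM in Eed KO organoids, against 4478 and 2584 CPM in WT organoids (-0.86 ± 0.26, adjusted p = 0.0655). Apoa1 had 569 and 577 CPM in Eed KO organoids, against 894 and 648 CPM in WT organoids, and Apoa4 had 617 and 1251 CPM against 1320.1 and 1326 CPM. These 3 were lower in both Eed KO organoids than in either WT organoid without passing the test. Enpep had 336 and 255 CPM in Eed KO organoids, against 426 and 252 CPM in WT organoids (-0.20, adjusted p = 0.679). Krt20 had 88.9 and 164 CPM in Eed KO organoids, against 122 and 114 CPM in WT organoids (0.10, adjusted p = 0.869). The groups overlapped for Enpep and Krt20, which were both lower in Eed KO crypts. Of the 10, 6 were lower and 2 higher in Eed KO organoids without overlap, where 27.9% and 31.3% of all genes were.

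**Figure D3:**
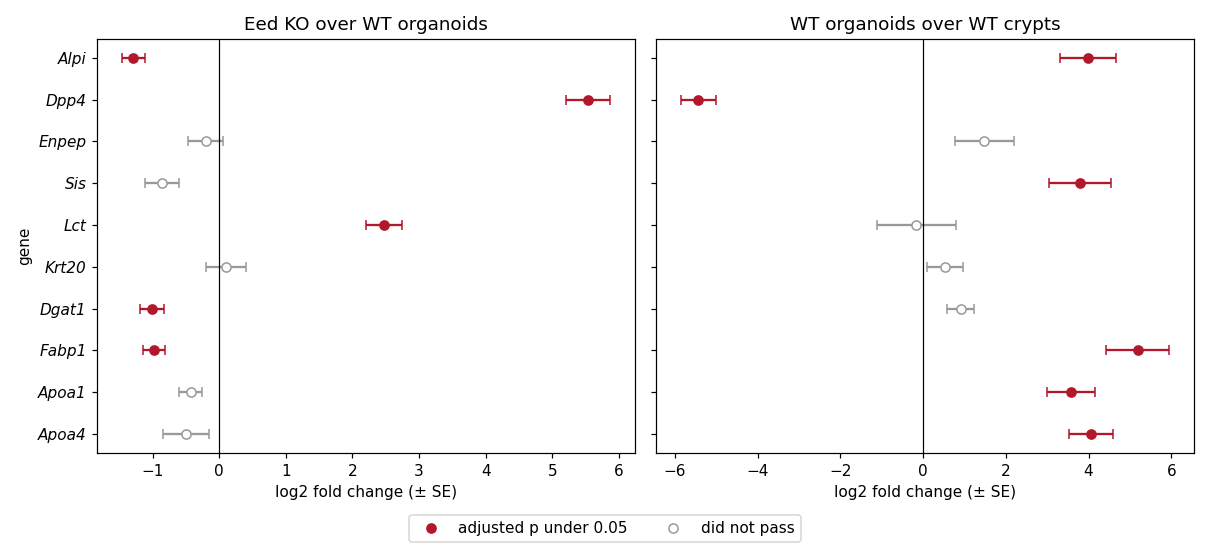
Log2 fold change with SE bars for each gene in Eed KO over WT organoids (left) and WT organoids over WT crypts (right), filled where the adjusted p is under 0.05. Dpp4 lies at 5.54 on the left and -5.43 on the right.

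Of the other hydrolases, 3 rose and 3 fell of 11 in Eed KO organoids. The peptidase gene Naaladl1 averaged 52.8 ± 2.42 CPM in Eed KO organoids and 5.92 ± 1.10 CPM in WT organoids (3.15 ± 0.18, adjusted p = 0.000105), and the meprin gene Mep1a rose too (1.67 ± 0.17). Those that fell were Xpnpep2 (-1.49 ± 0.17), Ggt1 (-0.60 ± 0.15) and the trehalase gene Treh (-0.91 ± 0.23). Of 22 fat uptake genes, 5 fell and 3 rose. The triglyceride transfer protein gene Mttp, which loads lipid onto chylomicrons, averaged 855 ± 38.2 CPM in Eed KO organoids and 1660.4 ± 334 CPM in WT organoids (-0.96 ± 0.17, adjusted p = 0.00937), and the cholesterol exporter gene Abca1 rose (2.07 ± 0.29). Of 16 transporters, 2 rose, with the phosphate transporter gene Slc34a2 at 3.35 ± 0.19, and the fructose transporter gene Slc2a5 fell (-0.99 ± 0.23). Among 23 regulators, 9 fell and 3 rose, with Cdx1 at -1.29 ± 0.12, Isx at -1.01 ± 0.11 and Hnf4g at -1.21 ± 0.19, and Klf4 higher at 1.18 ± 0.20. Of 15 brush border structure genes 1 rose, the keratin gene Krt18 (0.73 ± 0.16). Markers of secretory cells also differed. Of the genes tested, 8 of 10 for goblet cells, 6 of 8 for tuft cells and 5 of 10 for enteroendocrine cells were higher in Eed KO organoids and none lower. Of 10 Paneth cell genes, 6 were higher and 2 lower, Pla2g2a (-5.74 ± 0.20) and Mptx2 (-1.78 ± 0.14). Goblet cell genes summed to 4551 and 6803 CPM in Eed KO organoids against 2201 and 2904 CPM in WT organoids, and Paneth cell genes to 9964 and 6772 CPM against 4750 and 5623 CPM. Their part in the enterocyte results was not tested.

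WT organoids were set against WT crypts to place culture beside tissue. In culture 5 of the 10 genes were higher than in crypts and 1, Dpp4, was lower, where 9.17% of all 14761 genes were higher and 18.9% lower. The median log2 fold change of the 10 was 2.53, beside -0.13 over all genes. Fabp1 averaged 1230.1 ± 193 CPM in WT organoids and 45.3 ± 24.3 CPM in WT crypts (5.19 ± 0.76, adjusted p = 6e-04). Sis averaged 3531 ± 1339 CPM in WT organoids and 255 ± 113 CPM in WT crypts (3.79 ± 0.76, adjusted p = 0.00366). Alpi averaged 415 ± 98.2 CPM against 51.9 ± 29.5 CPM (3.98 ± 0.68, adjusted p = 0.00152). Fabp1, Sis and Alpi were higher in both WT organoids than in any WT crypt, as were Apoa1 (3.57 ± 0.58, adjusted p = 0.00111) and Apoa4 (4.05 ± 0.54, adjusted p = 0.000323). These fold changes depend on the run term. With run 385 alone, which holds the WT organoids, they were smaller, at 4.75 for Fabp1, 3.60 for Sis, 3.53 for Alpi, 3.20 for Apoa1 and 3.73 for Apoa4. Dpp4 averaged 3.62 ± 2.03 CPM in WT organoids and 141 ± 6.00 CPM in WT crypts (-5.43 ± 0.42, adjusted p = 1.45e-05). Enpep, Krt20, Dgat1 and Lct did not pass, with Lct at -0.17 ± 0.96 and Dgat1 at 0.91 ± 0.33 (adjusted p = 0.926 and 0.0627). Of the 10, 6 were higher and 1 lower in WT organoids without overlap, where 22.2% and 34.5% of all genes were. All 6 calls held in each of 17 alternatives. WT organoids carry the strain label FVB and WT crypts the mixed one, so that culture and strain background cannot be told apart. The sex that Ddx3y marks also differed for WT crypts 385_1 and 385_2, with 400 and 627 counts against 1 and 0 counts in WT organoids.

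Of the 22 other fat uptake genes, 16 were higher in WT organoids and 1, Abca1, lower. The fatty acid receptor gene Cd36 averaged 59.4 ± 8.56 CPM in WT organoids and 5.56 ± 1.36 CPM in WT crypts (3.92 ± 0.36, adjusted p = 3.67e-05). Of 16 transporters, 9 were higher and 1 lower, with the glucose transporter gene Slc2a2 at 3.91 ± 0.63 and Slc1a1 at -1.05 ± 0.26. Of 11 hydrolases, 5 were higher, among them Treh (4.15 ± 0.68), and 1 was lower, Naaladl1 (-4.02 ± 1.10). Naaladl1, like Dpp4, was thus low in WT organoids against both WT crypts and Eed KO organoids. Of 8 proximal small intestine genes tested, 7 were higher and none lower. All 14 immune genes were lower, with sums of 3.53 and 2.91 CPM in WT organoids 385_1 and 385_2, where 10 and 11 of the 14 had no count. Of the secretory markers tested, 9 of 10 goblet cell genes, 9 of 10 Paneth cell genes, 8 of 9 tuft cell genes and 4 of 10 enteroendocrine genes were lower in WT organoids and none higher. Their part in these results was not tested.

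Whether the Eed effect differed between organoids and crypts was tested directly. By the interaction test over all 13 libraries, Dpp4 was the 1 gene of the 10 whose Eed effect differed, by 5.97 ± 0.50 on the log2 scale (adjusted p = 0.000427), where 2.99% of all genes tested differed in that direction and 1.13% in the other. It passed in 17 of 17 alternatives. Lct differed by 5.33 ± 1.59 and Enpep by 3.66 ± 1.14, without passing (adjusted p = 0.0897 and 0.104). With crypts of run 385 alone, 4 of the 10 passed, Dpp4, Lct (7.73 ± 0.86), Enpep (4.99 ± 0.57) and Krt20 (2.44 ± 0.46). The share of all genes that passed in that refit is not given here. The effects in crypts and organoids share no library. Genotype in organoids cannot be told apart from strain background or from the sex that Ddx3y marks. In crypts of run 385 Ddx3y marked the WT libraries, and in organoids the Eed KO libraries. The cause of the difference was not tested.

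Ordered by group mean, Fabp1 and Sis had the same ladder at the top, WT organoids and then Eed KO organoids, each above all crypts without overlap, and below them Ezh2 KO crypts, whose range overlapped that of WT crypts. For Lct the order was Ezh2 KO crypts (144 ± 59.4 CPM), Eed KO organoids (111 ± 5.03), WT crypts (38.3 ± 17.5), Eed KO crypts (28.4 ± 47.8) and WT organoids (19.9 ± 8.30), and of these neighbours only Eed KO organoids and WT crypts did not overlap. Krt20, Enpep, Apoa1, Dpp4 and Lct had their highest mean in Ezh2 KO crypts, and Alpi, Dgat1, Fabp1, Sis and Apoa4 in WT organoids. Per kilobase of exon, the highest level of the 10 in WT crypts was that of Apoa1, at 137 CPM per kb, next to Apoa4 at 133, and the lowest was that of Lct, at 5.98 CPM per kb.

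Over the 9 crypt libraries, the 45 pairs of these genes had a median Pearson r of 0.84 of log2 CPM, with 16 pairs above 0.9. The lowest r was 0.16, between Dpp4 and Apoa4, and without Dpp4 the median was 0.88 and the lowest 0.51. These values are a description, since the libraries share genotype, run and depth differences. By the same measure, the genes most like each enterocyte gene were looked up among 14396 others. For Lct the closest was Enpp7 (r = 0.997), which encodes the alkaline sphingomyelinase of the brush border. For Enpep it was Nags (r = 0.997), which makes N-acetylglutamate for the urea cycle, and for Apoa1 Creb3l3 (r = 0.995), a membrane-bound transcription factor. Apoa4 was most like Zfp747 (r = 0.992) and then Apoc3 (r = 0.986), another apolipoprotein, and Fabp1 most like the retinol binding protein gene Rbp2 (r = 0.975). Alpi was most like Cst6 (r = 0.990), Krt20 like Suox (r = 0.994), Dgat1 like Vstm5 (r = 0.990), Dpp4 like Sec23a (r = 0.948) and Sis like Serpinb6a (r = 0.948).

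**Figure D4:**
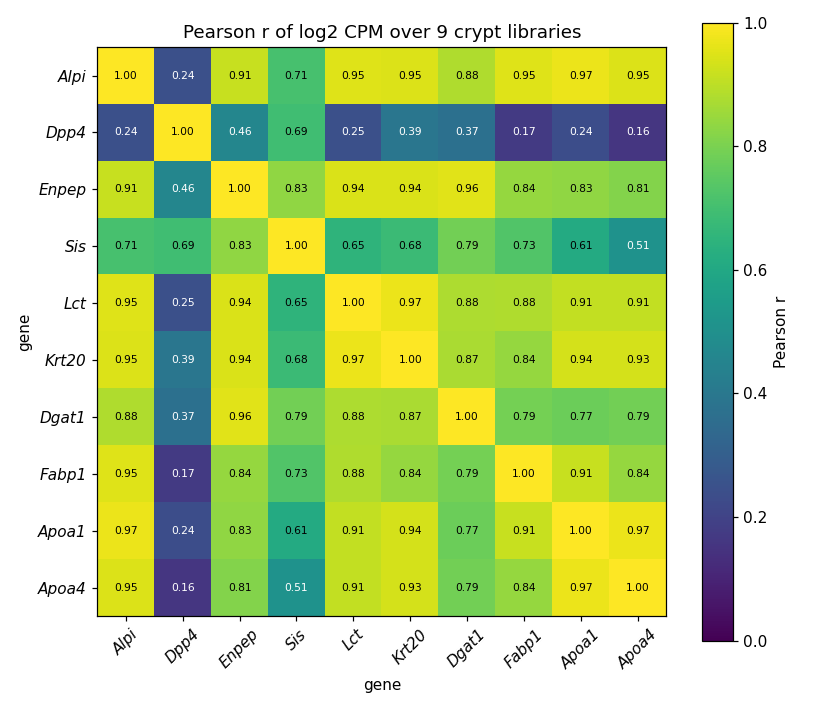
Pearson r of log2 CPM over the 9 crypt libraries for each pair of the 10 genes. The row of Dpp4 holds the low values, down to 0.16 with Apoa4.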

How the data were processed

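Each run has 1 deposited table of raw counts of reads per gene, from stranded libraries of polyadenylated RNA per the labels' protocols. GRCm38, TopHat2 2.0.12, Bowtie 0.12.9, HTSeq and DESeq2 are named in the submitters' processing notes. No strand setting of the counting was found in the sources used here. Reads of overlapping antisense genes therefore cannot be told apart.

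CPM were computed from these counts with TMM-scaled library sizes (13 libraries, log2 CPM with prior count 2). Tests were edgeR 4.0.16 quasi-likelihood F tests (R 4.3.3) after the low-count filter of edgeR (minimum count 10, minimum total 15), with Benjamini-Hochberg adjustment over all genes and a threshold of 0.05. Models had terms for group and run and covered 9 crypts (14406 genes, 5 residual degrees of freedom), 4 organoids without a run term (12958 genes, 2) or all 13 libraries (14761 genes, 7). SE come from the F statistic. Deviations of same-numbered Eed KO and WT crypts from their group means correlated in each pair (r = 0.18, 0.37 and 0.34). The difference between runs enters these values, and pairs of unlike number were not set beside them. They therefore cannot show that the numbers pair the libraries. Within run 385, the difference between 385_1 and 385_2 correlated between Eed KO and WT crypts with r = 0.15. Alternatives were DESeq2 1.42.0, other scaling, no filter, other sets of libraries and a replicate block. The fits were also run on simulated counts with the same spread for every gene, no run effect and no outlying library. That simulation cannot show how the fits act on libraries as unlike as these.

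The genes, lists and alternatives were chosen with earlier results of these data known. The 10 genes are named in full, and from other lists up to 3 genes of smallest p in each direction, except where a gene is not reported here. Ddx3y, mt-Co2 and the values by run were chosen after seeing the data. Exon lengths are from GENCODE M21. All columns of per-sample values were used.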

Additional observations from a re-analysis of the deposited data

Results flagged for a closer look

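The Eed effect on Dpp4 differed between organoids and crypts by 5.97 ± 0.50 on the log2 scale (interaction test, adjusted p = 0.000427). Both Eed KO organoids were higher than both WT organoids, and the mean of Eed KO crypts, 107 ± 35.2 CPM, was under that of WT crypts, 141 ± 6.00 CPM. In organoids the Eed effect cannot be told apart from strain background or from the sex that Ddx3y marks.

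The Eed effect on 2 genes differed between the runs, higher in run 440 than in run 385. The difference was 3.65 ± 0.73 for Alpi (adjusted p = 0.0447) and 6.02 ± 1.11 for Lct (adjusted p = 0.0399). Run 440 holds 1 Eed KO and 1 WT crypt, so that these differences rest on 1 library each. The cause was not tested.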

How the results depend on the processing

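Of the counts of called genes among the 10, that for Eed KO against WT crypts was 3, and became 1 with the replicate block, 7 with run 385 alone, 0 with run 440 alone, and 1 to 8 when 1 library was left out. It was 8 without Eed KO 440_1 or WT 440_1 and 1 without Eed KO 385_1 or 385_2. For Ezh2 KO against WT crypts it was 0, and 0 to 3 with 1 library left out, 3 without WT 440_1. For Eed KO against Ezh2 KO crypts it was 2, and became 1 with no low-count filter, 0 with run 440 alone or no run term, and 0 to 7 with 1 library left out, 7 without Eed KO 440_1 and 0 without Ezh2 KO 440_1, Ezh2 KO 440_2 or WT 385_2. For Eed KO against WT organoids it was 5, and 1 (Dpp4) with all 13 libraries in the fit, whose spread then comes also from crypts, or 7 with the replicate block, where the 2 organoid pairs share only a number (r = 0.33 for the difference between numbers). For the interaction it was 1, and became 4 with DESeq2 or run 385 alone, and 1 to 4 with 1 library left out, 4 without Eed KO 440_1 or WT 440_1. All 6 calls of WT organoids against WT crypts held in 17 of 17 alternatives. The shares of all genes called in these alternatives are not given here, so the counts have no background beside them.

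Over all comparisons and alternatives, 739 fold changes of single genes kept their direction and side of the threshold, 48 passed only in the alternative, 31 passed only in the main test, and 62 that were not called changed sign, 33 of them for Ezh2 KO against WT crypts. No called fold change changed sign. Causes were not tested. With 2 libraries a group in organoids, the fit has 2 residual degrees of freedom, and the spread used for each gene is borrowed in part from the other genes.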

Other observations

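Dpp4 was the 1 gene of its neighbourhood with so large a difference between organoids. Of 5 other genes tested within 1 Mb of it on chromosome 2, a window chosen after seeing the data, 1 passed the test in Eed KO against WT organoids. Ifih1, a sensor of double-stranded RNA, averaged 68.8 CPM in Eed KO organoids and 20.8 CPM in WT organoids (log2 fold change 1.73 ± 0.37, adjusted p = 0.0332). Gcg, the proglucagon gene beside Dpp4, averaged 7.85 CPM in Eed KO organoids and 10.3 CPM in WT organoids (-0.39 ± 0.34, adjusted p = 0.520), and Psmd14 had 130.8 CPM in both.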
